A study of Mus musculus with 6 samples.

Results

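The PYHIN family of DNA sensors was examined in microglia of lupus-prone and control mice. The 9 genes described here, Aim2, Ifi203, Ifi204, Ifi206, Ifi207, Ifi209, Ifi211, Ifi213 and Mndal, were chosen by name, by matching the Ensembl identifiers of the count table to their symbols. They are 9 of the 55401 genes in that table, and 8 passed the filter on low counts. The libraries came from brain microglia of untreated mice aged 6 weeks, 3 from MRL/lpr mice and 3 from MRL/mpj mice. In MRL/lpr mice the death receptor gene Fas is disrupted by the lpr mutation and a lupus-like disease develops. The control strain MRL/mpj has intact Fas. The cells were isolated on a Percoll gradient and selected with magnetic beads for CD11b, a surface protein that microglia share with other myeloid cells. The study counts mice as the n of its sequencing, with no mention of pooled animals, and the p-values below measure the spread between these libraries. Xist, expressed in female cells, had 8886 to 11319 counts in MRL/lpr and 27 to 38 in MRL/mpj, while 4 Y-linked genes summed to between 8408 and 15046 counts in every library. The methods describe female mice, so the libraries go against that description, and sex and strain cannot be told apart for any member. Signals of both sexes stood together in the MRL/lpr libraries, so that each of these holds 1 mouse is not certain. MRL/lpr 3 stood apart from its strain. The median squared difference between its gene counts and those of the other MRL/lpr libraries was 23.6 and 23.4 times that of counting noise, against 9.07 to 11.6 times for the other pairs within a strain.

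PYHIN proteins join a pyrin domain, which binds other pyrin domains, to a HIN domain, which binds double-stranded DNA. AIM2 detects DNA in the cytosol, gathers the adaptor ASC (gene Pycard) through its pyrin domain and so activates caspase-1, which matures interleukin-1β and interleukin-18 and cleaves gasdermin D. The IFI200 proteins are mostly nuclear, and p204, the product of Ifi204, is often set beside human IFI16 as a sensor that acts through STING. Many of these genes are switched on by interferons, and in mice they stand next to each other on chromosome 1.

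Most of the family had higher levels in MRL/lpr microglia. In the quasi-likelihood test of edgeR, adjusted over all genes by the Benjamini-Hochberg method, 7 of the 8 tested members were higher in MRL/lpr, where 11.1% of all 19554 genes tested were called higher and 9.06% lower. None was lower (0 by edgeR, 0 at an unadjusted p under 0.05 and 0 by DESeq2). With scaling by library size only, which moved the median log2 fold change of all genes from -0.01 to -0.13, 8.36% of all genes were higher and 14.3% lower, and the same count of 7 members was higher. The differences ran from 1.58-fold for Aim2, by far the most abundant member, to 12.2-fold for Ifi209. Ifi206 did not pass the test and Ifi213 was too sparse to enter it. Over the 8 tested members the median log2 fold change was 1.82, against -0.01 for all genes tested. With the study's minimum of 1 for the absolute log2 fold change, 6 members passed, beside 4.67% of all genes higher at that minimum, and Aim2 was the member that dropped out. MRL/lpr 3 was the lowest MRL/lpr library in CPM for Aim2, Ifi207, Ifi209 and Mndal, and without it 7 of 8 tested members were higher in MRL/lpr, beside 11.6% of 20440 genes, with a median log2 fold change of 1.77 for the members. The MRL/lpr libraries lay above the MRL/mpj libraries without overlap for 7 members, and 19.6% of all genes tested separated in that direction.

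**Figure D1:**
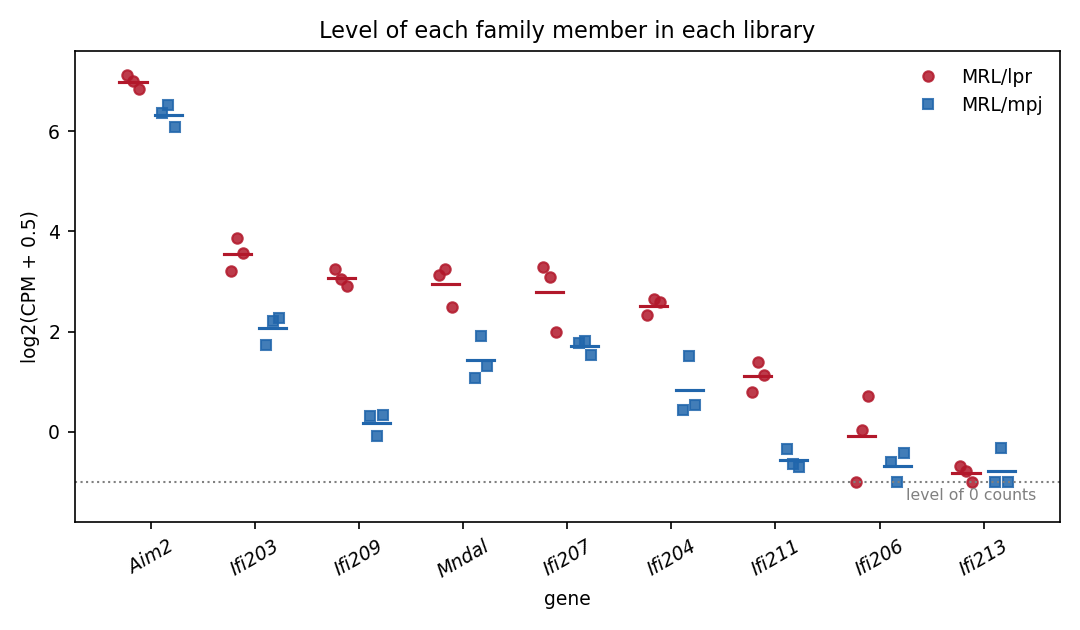
Level of the 9 genes in each library, as log2(CPM + 0.5), where CPM is counts scaled to library size with TMM. Red circles are the 3 MRL/lpr libraries, blue squares the 3 MRL/mpj libraries, short lines the means of these log values, and the dotted line is the level of 0 counts. The red circles lie above the blue squares for 7 genes, and the colours mix for Ifi206 and Ifi213.

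Because the members moved together, the stretches before their start sites are shown. RefSeq promoters of 300 bases (250 before and 50 after the annotated start, on the C57BL/6J genome GRCm38.p6, not the MRL genome) were found for 8 of the 9 members, with no entry for Ifi204. The letters GAAANNGAAA, the core of the element bound by the interferon-activated factor ISGF3, were searched on both strands. They occurred in the promoters of 6 members (Ifi203, Ifi206, Ifi207, Ifi211, Ifi213 and Mndal) and in 3.44% of all 32851 promoters. The form most frequent in the family, GAAATCGAAA, was in a promoter of 5 of the 8 members. It was in 16 of all promoters, or 0.0487%, of which 7 belonged to PYHIN genes. That form was read off the family itself, so its rarity elsewhere is a description. Ifi203 and Mndal have more than 1 annotated start, and a member was counted if any of its promoters matched. The other Ifi203 promoter held no match, and its closest stretch differed in 4 letters. The other Mndal promoter lacked this form but held the general motif on the opposite strand. The windows below hold the motif of each member, or its nearest form where 1 letter differs, in capitals on the strand of the gene. Mndal is shown over 30 bases, since its window lies in annotated exons.
Ifi203 (chr1:173942493-173942552, minus strand): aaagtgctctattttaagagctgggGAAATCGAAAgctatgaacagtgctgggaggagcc
Mndal (chr1:173880204-173880233, minus strand): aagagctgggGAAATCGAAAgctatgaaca
Ifi206 (chr1:173491324-173491383, minus strand): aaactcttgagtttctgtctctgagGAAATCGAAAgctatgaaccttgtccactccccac
Ifi213 (chr1:173599311-173599370, minus strand): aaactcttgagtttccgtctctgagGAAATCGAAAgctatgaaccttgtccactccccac
Ifi207 (chr1:173741816-173741875, minus strand): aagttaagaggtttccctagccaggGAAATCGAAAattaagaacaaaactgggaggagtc
Ifi211 (chr1:173913049-173913108, minus strand): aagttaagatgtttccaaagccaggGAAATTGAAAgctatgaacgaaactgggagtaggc
Ifi209 (chr1:173630755-173630814, plus strand): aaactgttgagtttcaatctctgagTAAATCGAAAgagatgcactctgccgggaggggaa

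Counted from 1 at the first capital of GAAATCGAAA, Ifi211 differed by C6T, which keeps the general motif, and Ifi209 by G1T, which does not. Distances are from the start sites of the printed windows. The motif began 35 bases before the start site in Ifi203, 36 in Mndal, 37 in Ifi211, 40 in Ifi206, 41 in Ifi207 and 73 in Ifi213. The Aim2 promoter held no match, and its closest stretch differed in 4 letters. A match is a description of the letters, not of a bound site. Over their whole length, the promoters of the printed windows also resembled each other in pairs. Identity was 90.7% between Mndal and Ifi203, 85.9% between Ifi207 and Ifi211, and 78.7% between Ifi206 and Ifi213. Among the tested members, Ifi209, without the motif, had the largest fold change and Aim2, also without it, the smallest. Whether the letters bear on the fold changes was not tested.

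Aim2 (ENSMUSG00000037860, chr1:173350879-173466040, plus strand, GRCm38), the DNA-binding subunit of the AIM2 inflammasome, had 6524, 5976 and 4747 counts in MRL/lpr and 4186, 4565 and 3517 in MRL/mpj. In counts, the lowest MRL/lpr library stood just above the highest MRL/mpj library, a narrow margin. After scaling, these were 114 CPM in MRL/lpr 3 and 91.3 CPM in MRL/mpj 2. Its level was 126 ± 12.6 CPM in MRL/lpr and 80.1 ± 11.9 CPM in MRL/mpj (SD, n = 3), a log2 fold change of 0.66 (standard error 0.12, edgeR adjusted p = 0.00372). With scaling by library size only, the log2 fold change was 0.54 (edgeR adjusted p = 0.0155).

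Ifi204 (ENSMUSG00000073489, chr1:173747293-173766943, minus strand) encodes p204, a nuclear and cytosolic DNA sensor. Its counts were 212, 270 and 232 in MRL/lpr and 44, 117 and 50 in MRL/mpj. The 3 MRL/lpr libraries lay close together, while MRL/mpj 2 had more than the other MRL/mpj libraries. The means were 5.27 ± 0.661 CPM and 1.39 ± 0.828 CPM (SD, n = 3), with a log2 fold change of 1.93 (standard error 0.38, edgeR adjusted p = 0.00667). Leaving out MRL/mpj 2 gave the highest value of the 6 fits that each leave out 1 library, 2.53.

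Ifi209 (ENSMUSG00000043263, chr1:173630917-173647928, plus strand) showed the widest separation. It had 421, 368 and 294 counts in MRL/lpr, against 38, 22 and 40 in MRL/mpj. Every MRL/lpr library held at least several times the count of the highest MRL/mpj library. The level was 7.94 ± 0.965 CPM in MRL/lpr and 0.649 ± 0.182 CPM in MRL/mpj (SD, n = 3), a log2 fold change of 3.60 (standard error 0.27, edgeR adjusted p = 2.02e-05). The value stayed between 3.39 and 3.74 when each library was left out in turn. Of the 150-base words of its transcripts, the length of a read, 9.28% also occur in Ifi214, so reads from there could have been split between both genes.

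Ifi211 (ENSMUSG00000026536, chr1:173896345-173913046, minus strand) followed, with 58, 101 and 71 counts in MRL/lpr and 15, 7 and 6 in MRL/mpj. Its lowest MRL/lpr library was above its highest MRL/mpj library. The means of 1.69 ± 0.456 CPM and 0.182 ± 0.0956 CPM (SD, n = 3) gave a log2 fold change of 3.20 (standard error 0.52, edgeR adjusted p = 0.00221). Its identity in these counts was the least certain of the called members, because 46.4% of its 150-base words are shared with Ifi205, Ifi204 or Mndal.

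Ifi203 and Mndal, neighbours whose annotated spans overlap on the minus strand, had similar fold changes. Ifi203 (ENSMUSG00000039997, chr1:173920407-173942672) had 409, 664 and 473 counts in MRL/lpr and 146, 208 and 225 in MRL/mpj. The strains were clearly apart. Its means were 11.4 ± 2.70 CPM and 3.78 ± 0.813 CPM (SD, n = 3), and its log2 fold change was 1.59 (standard error 0.24, edgeR adjusted p = 0.00125). Mndal (ENSMUSG00000090272, chr1:173849126-173942491), the gene like myeloid nuclear differentiation antigen, had 387, 426 and 215 counts in MRL/lpr and 82, 164 and 104 in MRL/mpj. MRL/lpr 3 was the lowest of its strain and still above MRL/mpj 2. The log2 fold change was 1.71 (standard error 0.32, edgeR adjusted p = 0.00467), from 7.48 ± 2.06 CPM and 2.29 ± 0.880 CPM (SD, n = 3). Of the exon bases of Mndal, 4.27% are shared with Gm38050 or Ifi203, and of those of Ifi203, 0.552% are shared with Mndal.

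Ifi207 (ENSMUSG00000073490, chr1:173723427-173741747, minus strand) was the least secure of the called members. Its counts were 435, 377 and 145 in MRL/lpr and 150, 151 and 124 in MRL/mpj. MRL/lpr 3 had fewer counts than MRL/mpj 1 and MRL/mpj 2, and only after scaling did it lie above them, at 3.47 CPM against 2.92 and 3.02 CPM. The means were 6.91 ± 3.04 CPM and 2.77 ± 0.342 CPM (SD, n = 3), with a log2 fold change of 1.32 (standard error 0.34, edgeR adjusted p = 0.0225). Without MRL/lpr 3 the edgeR adjusted p was 0.000762, and in each of the other 5 fits that leave out 1 library it was between 0.0636 and 0.0886, above the threshold of 0.05. The other 6 called members passed in all 6 of these fits.

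The remaining members were near the detection limit. Ifi206 (ENSMUSG00000037849, chr1:173468485-173491041, minus strand) had 0, 25 and 48 counts in MRL/lpr and 8, 0 and 13 in MRL/mpj. Libraries without a count stood in both strains, and its log2 fold change of 2.02 had a standard error of 1.47 (edgeR adjusted p = 0.404). Ifi213 (ENSMUSG00000073491, chr1:173566283-173599274, minus strand) had 6, 4 and 0 counts in MRL/lpr and 0, 15 and 0 in MRL/mpj. A difference in Ifi213 was not detectable at this depth. Low counts carry little information, and over all genes they clustered at multiples of 4, for a reason that was not tested. Over the 6 libraries, 7351 gene values were 4 counts, against 2240 at 3 and 1421 at 5, so the size of a low count is not a number of independent read pairs. The MRL/mpj counts of Ifi211, a called member, are also low. Dividing all counts by 4 left 7 members higher.

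**Figure D2:**
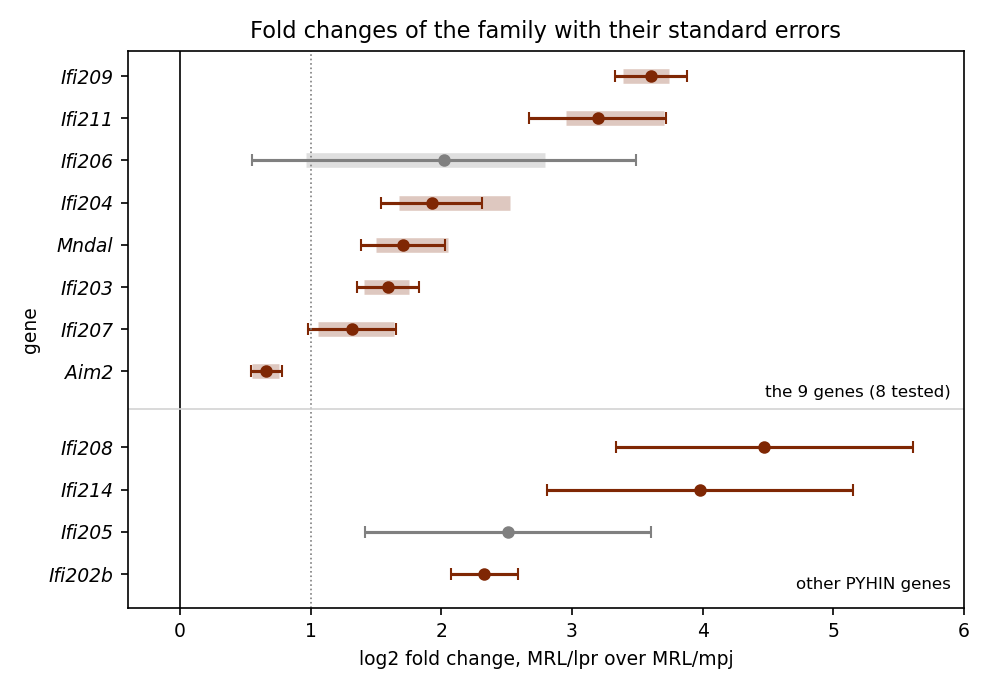
Log2 fold change of MRL/lpr over MRL/mpj for the 8 tested members (top) and 4 other PYHIN genes (bottom), with standard errors from edgeR as whiskers. Brown points passed the adjusted p of 0.05 and grey points did not, pale bands give the range over the 6 fits without 1 library for the 8 members, and the dotted line marks a log2 fold change of 1. Ifi209 and Ifi211 stand above 3, Aim2 below 1, and the whiskers of Ifi206 are the widest of the members.

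The sizes of these differences were unequal. Against a minimum change of 2-fold, tested with edgeR's glmTreat, 2 members passed (Ifi209 and Ifi211), where 3.15% of all genes did. The unequal change also showed in the makeup of the family, which was followed per length with FPKM, fragments scaled by gene length and by depth. Aim2 had 34.54, 31.57 and 26.73 FPKM in MRL/lpr and 21.61, 24.27 and 17.95 FPKM in MRL/mpj, while no other member exceeded 2.36 FPKM in any library. In FPKM means of the MRL/lpr libraries, Aim2 at 30.9 ± 3.94 was followed by Ifi209 at 1.92 ± 0.285, Mndal at 1.78 ± 0.535, Ifi207 at 1.74 ± 0.807, Ifi203 at 1.45 ± 0.354, Ifi204 at 1.26 ± 0.151 and Ifi211 at 0.807 ± 0.221 (SD, n = 3). From Ifi209 to Ifi204, neighbours in this order did not differ beyond their spread. In MRL/mpj, Aim2 at 21.3 ± 3.17 FPKM was followed by Ifi207 at 0.753 ± 0.0907, Mndal at 0.583 ± 0.229, Ifi203 at 0.523 ± 0.116 and Ifi204 at 0.36 ± 0.217 FPKM (SD, n = 3). Ifi209 at 0.167 ± 0.0493 and Ifi211 at 0.0933 ± 0.0493 FPKM came only after these, so the mean of Ifi209 stood below that of Ifi204 in MRL/mpj and next after Aim2 in MRL/lpr.

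Summed over the 9 genes, the level was 168 ± 16.5 CPM in MRL/lpr and 91.4 ± 13.3 CPM in MRL/mpj (SD, n = 3), a ratio of 1.83. Without Aim2 the sum was 41.3 ± 6.06 CPM against 11.3 ± 2.18 CPM, a ratio of 3.66. These sums do not depend on how reads were split among the 9 genes. Sequence that members share with genes outside the sum, such as Ifi205, Ifi208, Ifi214, Ifi203-ps or Gm18752, still bears on them. Aim2 made up 78.6%, 74.9% and 78.3% of the summed FPKM in the MRL/lpr libraries and 90.8%, 88.8% and 88.5% in the MRL/mpj libraries. The Aim2 share was lower in every MRL/lpr library than in every MRL/mpj library (two-sided exact permutation test, p = 0.1, the smallest that 3 against 3 allows, and 0.243 adjusted over the 17 shares compared). Within the other 8 genes, Ifi209 took 23.4%, 18.2% and 22.1% in MRL/lpr and 8.72%, 3.58% and 8.55% in MRL/mpj. For Ifi207 the order of the strains was the opposite, with 25.1%, 19.3% and 11.2% in MRL/lpr and 36.2%, 26.7% and 27.8% in MRL/mpj. The shares of both genes separated the strains without overlap (exact permutation p = 0.1 for each, adjusted 0.243), whereas the shares of Ifi203, Ifi204, Ifi206, Ifi211, Ifi213 and Mndal overlapped between them.

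**Figure D3:**
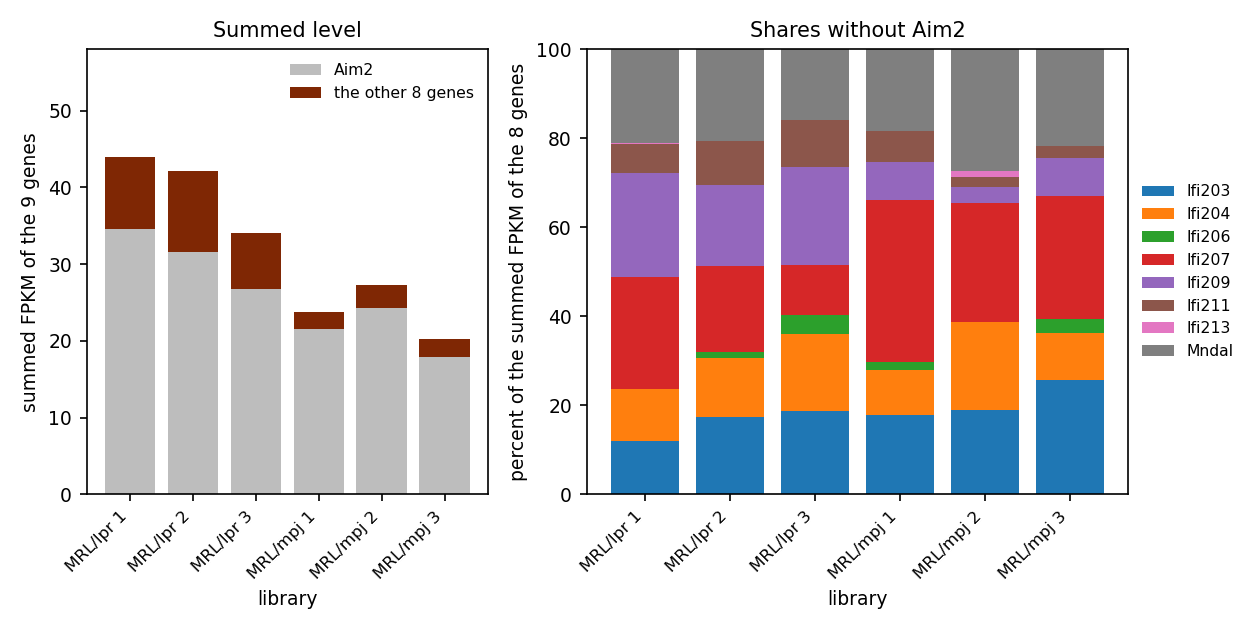
Left, summed FPKM of the 9 genes in each library, with Aim2 in grey and the other 8 genes in brown. Right, the share of each gene in the summed FPKM of the 8 genes without Aim2, in percent, where Ifi209 (purple) fills 18.2% to 23.4% in MRL/lpr and 3.58% to 8.72% in MRL/mpj.

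The 9 genes lie within 591.794 kb of chromosome 1 (GRCm38, annotation GENCODE M21), from Aim2 at one end to Ifi203 at the other. Aim2 and Ifi209 are on the plus strand and the other 7 on the minus strand. Fold change did not follow position. Ifi209 in the middle and Ifi211 near the far end had the largest values, and Aim2 and Ifi206, whose annotations are 2.445 kb apart, had 4186 to 6524 and 0 to 48 counts.

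**Figure D4:**
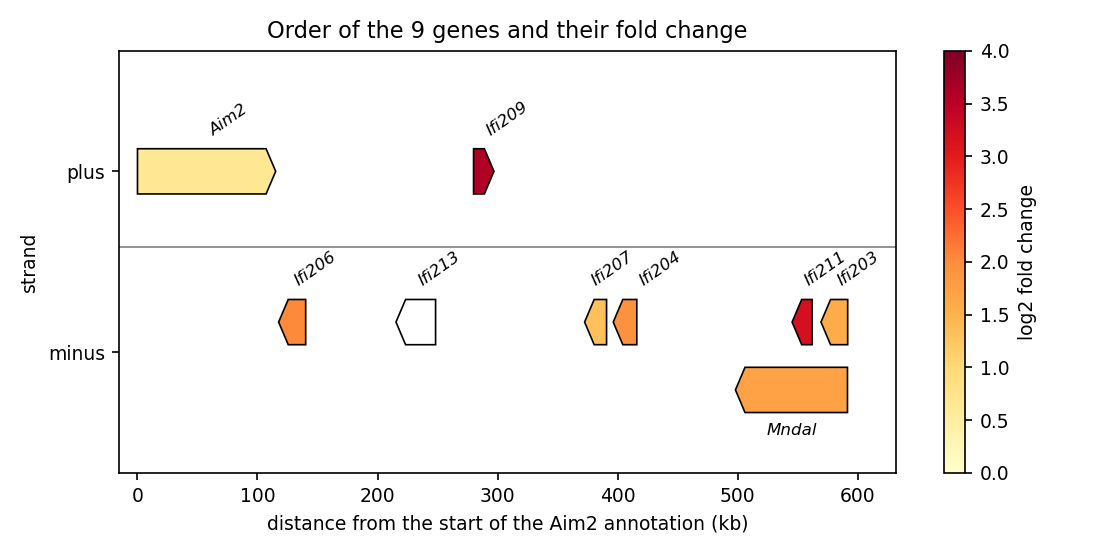
Position of the 9 genes by distance from the start of the Aim2 annotation in kb, plus strand above and minus strand below, with arrows in the direction of transcription. The colour is the log2 fold change of MRL/lpr over MRL/mpj, and Ifi213, not tested, is white. The darkest genes, Ifi209 and Ifi211, have members with smaller changes on both sides.

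Of 18 other tested genes that begin in this span or within 1 Mb of it, 4 were higher in MRL/lpr and 1 was lower. The shares over all genes tested were 11.1% higher and 9.06% lower. Among the 4 were 3 further PYHIN genes. Ifi202b (ENSMUSG00000026535), whose product has HIN domains but no pyrin domain and counteracts AIM2, had 324, 347 and 282 counts in MRL/lpr and 88, 76 and 49 in MRL/mpj. The strains were far apart, with a log2 fold change of 2.33 (standard error 0.26, edgeR adjusted p = 0.000226). Ifi208 had 111, 47 and 50 counts against 0, 10 and 0 (log2 fold change 4.47, standard error 1.13, edgeR adjusted p = 0.0237). Ifi214 had 47, 70 and 81 counts against 14, 0 and 0 (log2 fold change 3.98, standard error 1.17, edgeR adjusted p = 0.046). Both rest on few counts in MRL/mpj. Ifi208 passed in 4 of the 6 fits without 1 library and not without MRL/lpr 1 or MRL/lpr 3 (edgeR adjusted p = 0.0838 and 0.0547). Ifi214 passed in 1 of them, without MRL/mpj 1, and its adjusted p reached 0.118. The log2 fold changes ranged from 3.90 to 9.19 for Ifi208 and from 3.40 to 9.13 for Ifi214, where the upper values, without MRL/mpj 2 and MRL/mpj 1, are set against libraries with 0 counts and are no measure of size. Ifi205 had 25, 36 and 12 counts against 10, 0 and 4, which did not pass (log2 fold change 2.51, edgeR adjusted p = 0.151). Outside the family, Slamf8, a receptor of myeloid cells, was higher at a log2 fold change of 0.64 (edgeR adjusted p = 0.00494). Of the tested genes outside the family, Cadm3 and Ackr1 begin nearest, with their lowest annotated positions 17.621 kb and 18.993 kb before the span. How far they reach toward it was not measured. The log2 fold changes of Cadm3 and Ackr1, -0.62 and -1.04, did not pass (edgeR adjusted p = 0.533 and 0.143).

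Downstream of AIM2, the adaptor moved against the sensor. Pycard, which encodes ASC, had 1189, 977 and 992 counts in MRL/lpr and 3617, 3434 and 3489 in MRL/mpj. All 3 MRL/lpr libraries lay far below the MRL/mpj libraries, at a log2 fold change of -1.56 (standard error 0.10, edgeR adjusted p = 5.57e-06). Casp1, the protease it activates, had 1713, 1549 and 946 counts against 1235, 994 and 916, with overlap of the strains (log2 fold change 0.58, edgeR adjusted p = 0.0574). Without MRL/lpr 3 it passed (edgeR adjusted p = 0.00516), and in the other 5 fits without 1 library it did not. Of 20 inflammasome genes tested, 6 were higher in MRL/lpr (Il1a, Il1b, Casp4, Nlrp3, Nlrp1b and Txnip) and Pycard was the 1 lower. Beside these, 11.1% of all genes tested were called higher and 9.06% lower. Nlrp3, a sensor of cell damage that uses the same adaptor, had a log2 fold change of 1.20 (edgeR adjusted p = 0.00467), and Casp4, the receptor of cytosolic lipopolysaccharide, 1.04 (edgeR adjusted p = 0.000376). Il1b had 2411, 2545 and 2178 counts against 1652, 1614 and 1827, a log2 fold change of 0.66 (edgeR adjusted p = 0.000421). Gsdmd and Il18 did not pass, at 0.17 and 0.03 on the log2 scale (edgeR adjusted p = 0.106 and 0.934).

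Most genes of the cGAS-STING route, the other cytosolic DNA sensing path, did not pass the test. Of 26 tested, 3 were higher (Zbp1, Irf7 and Lrrfip1) and 2 were lower (Ifnb1 and Xrcc5), shares close to the 11.1% and 9.06% of all genes. Cgas, the sensor, had a log2 fold change of 0.38 (edgeR adjusted p = 0.253), Tmem173, which encodes STING, -0.08 (edgeR adjusted p = 0.537), Tbk1 0.04 (edgeR adjusted p = 0.864) and Irf3 -0.21 (edgeR adjusted p = 0.166). Zbp1, a receptor of Z-form nucleic acids, was higher at 4.10 (edgeR adjusted p = 8.41e-07) and Irf7, an interferon-induced activator of interferon genes, at 2.86 (edgeR adjusted p = 4.66e-07). Ifnb1 itself was lower at -0.63 (edgeR adjusted p = 0.0336), a call kept in 1 of the 6 fits without 1 library, that without MRL/lpr 2. Of 16 listed enzymes that clear DNA, limit nucleotides or edit RNA, 2 were higher and 2 lower, beside 11.1% and 9.06% of all genes. The higher ones were the secreted nuclease Dnase1l3 at 2.26 (edgeR adjusted p = 0.00138) and the RNA editor Adar at 1.02 (edgeR adjusted p = 2.07e-05). The lysosomal nucleases Dnase2a and Pld3 were lower at -0.37 and -0.41 (edgeR adjusted p = 0.0138 and 0.042). Of the 6 fits without 1 library, Dnase2a passed in 2, without MRL/lpr 3 or MRL/mpj 1, and Pld3 in 1, without MRL/lpr 3, with adjusted p up to 0.0575 and 0.142 in the others. Trex1 and Samhd1 did not pass, at 0.66 and 0.20 (edgeR adjusted p = 0.343 and 0.0787).

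Genes known to be induced by interferon were mostly higher, as 7 of the 8 tested members were. Of 20 interferon-stimulated genes listed for reference, 19 were higher, beside 11.1% of all genes tested. Cxcl10, at a log2 fold change of 0.05 (edgeR adjusted p = 0.811), did not pass. The 20 genes had a median log2 fold change of 1.61, near the 1.82 of the members, and single values ranged up to 5.20 for Ifi44. Both this list and the members were chosen with earlier results of these data known. The high share and the nearness of the medians are descriptions for that reason, and no independent test of a shared change. The list also held Gbp3 at 2.98, Ifit3 at 3.30, Mx1 at 2.69, Oas1a at 2.46 and Cmpk2 at 2.11. Of 18 interferon receptor and signalling genes, 7 were higher and 1 lower, beside 11.1% and 9.06% of all genes tested. The lower one was Ifngr1, a chain of the interferon-γ receptor, at -0.76 (edgeR adjusted p = 5.22e-05). Of the genes of ISGF3, the factor that binds the promoter element searched above, Stat2 was higher at 1.21 (edgeR adjusted p = 0.000126) and Irf9 at 0.64 (edgeR adjusted p = 0.00519). Usp18, an inhibitor of the interferon receptor, was higher at 2.72 (edgeR adjusted p = 1.48e-06).

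**Figure D5:**
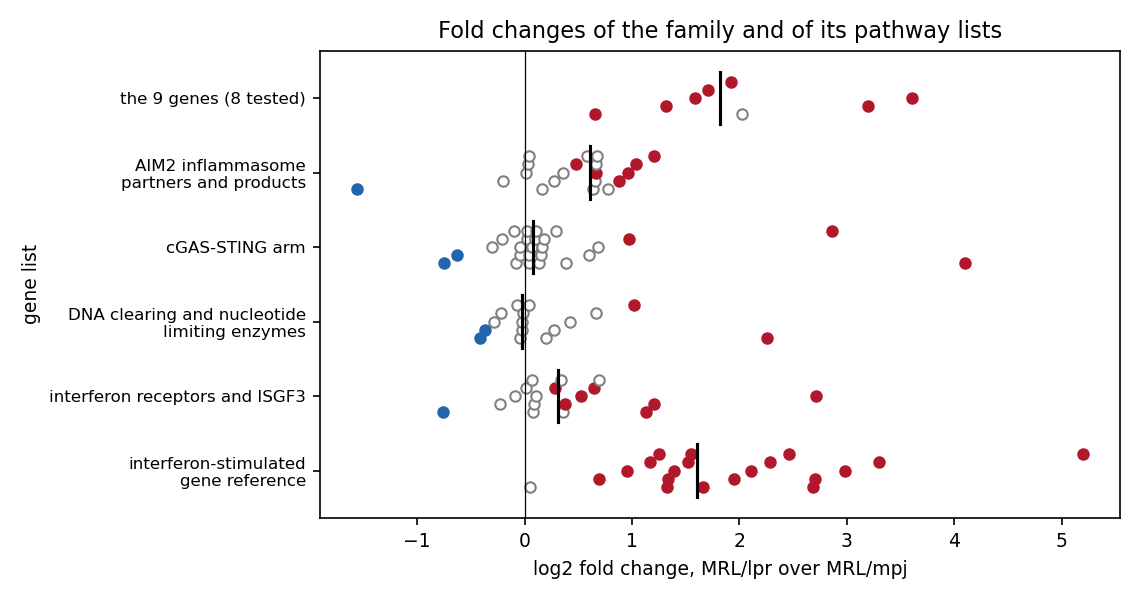
Log2 fold change of MRL/lpr over MRL/mpj for each tested gene of the family and of 5 gene lists. Red points were called higher and blue points lower at an edgeR adjusted p under 0.05, open points were not called, and black bars are medians. The family and the interferon-stimulated genes have medians of 1.82 and 1.61, while that of the cGAS-STING genes is 0.08, with 3 called higher (Zbp1, Irf7 and Lrrfip1) and 2 called lower (Xrcc5 and Ifnb1).

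Over the 6 libraries, the genes whose log2 CPM followed the mean of the tested members most closely were Fgd3 (Pearson r = 0.999), Card19 (0.998), Mxd1 (0.998), Lifr (0.997) and H2-T22 (0.997), out of 9297 genes with a mean of at least 10 CPM. The mean of log2(CPM + 0.5) over the members was 2.76, 3.04 and 2.78 in the MRL/lpr libraries and 1.34, 1.53 and 1.37 in the MRL/mpj libraries. The points thus fell into the 2 strains, and 1199 genes had an r above 0.9, so the ranking describes mainly genes that differ between the strains in the same direction.

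Some facts of the libraries stood beside these results. Totals ran from 45481609 to 49846634 counts. Fas had 461, 282 and 298 counts in MRL/lpr and 426, 432 and 362 in MRL/mpj. The strains overlapped, at a log2 fold change of -0.06 (edgeR adjusted p = 0.887), so the Fas counts showed no difference that would go with the labels. They are counts of the whole gene, and the genotype was not tested from them.

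Markers of microglia were abundant, as the label of the cells says, and summed to 23219 to 25981 CPM in MRL/lpr and 27473 to 28045 CPM in MRL/mpj, with 3 of 12 lower in edgeR and 0 higher (0 also at an unadjusted p under 0.05 and in DESeq2). Markers of T cells moved with the members. Of 8, 7 were higher, their sum was 18.1 to 25.2 CPM in MRL/lpr and 4.44 to 4.77 CPM in MRL/mpj, and Cd8b1 had 0 counts in every MRL/mpj library. Of 7 NK cell markers tested, 4 were higher (16.0 to 19.2 CPM against 9.26 to 9.85 CPM), as were 2 of 8 for plasma cells (208 to 236 against 189 to 198 CPM), 4 of 8 for neutrophils (603 to 689 against 465 to 527 CPM) and 3 of 8 for dendritic cells (224 to 267 against 171 to 194 CPM). Bst2 stands both among the dendritic cell markers and on the pathway lists, and it was higher in every fit without 1 library. Monocyte markers had 3 of 8 higher and 1 lower with overlapping sums (95.6 to 113 against 100 to 110 CPM), and of 6 tested B cell markers 0 passed in edgeR (14.6 to 15.4 against 11.6 to 15.2 CPM), with 2 at an unadjusted p under 0.05 and 2 in DESeq2. Markers of ependyma and choroid plexus had 5 of 8 lower (362 to 381 against 1058 to 1144 CPM), and those of border macrophages, neurons and oligodendrocytes had 2 of 8 lower each. Astrocyte markers had 1 of 8 lower (121 to 167 against 201 to 208 CPM), those of endothelium 2 of 8 higher and 1 lower (1921 to 2096 against 1761 to 1824 CPM), and those of erythrocytes 1 of 6 tested higher (686 to 1136 against 613 to 675 CPM). Beside these marker counts, 11.1% of all genes tested were called higher and 9.06% lower. The part of these cell types in the higher levels of the 7 members was not tested. In bulk libraries, more cells of a type and more RNA per cell cannot be told apart.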

How the data were processed

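RNA of CD11b-selected brain microglia was sequenced as paired reads of 150 bases from 3 MRL/lpr and 3 MRL/mpj libraries. The labels describe removal of ribosomal RNA and a stranded total RNA kit, and the study's methods describe purified mRNA. The submitters' processing notes name cutadapt 1.9.3, HISAT2 2.0.4, Cufflinks, Cuffdiff 2.2.1 and the build GRCm38. The counting tool, its strand setting and the annotation are not given in the sources used here. The authors deposited a table of raw counts that are whole numbers, and, for each library, a table of FPKM.

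From the counts, genes passing filterByExpr (minimum count 10, minimum total 15) were normalized with TMM and compared between strains with edgeR 4.0.16 in R 4.3.3 (robust quasi-likelihood test, Benjamini-Hochberg over all 19554 genes). A gene was called at an adjusted p under 0.05, and the count at the study's minimum, an absolute log2 fold change of 1, is given beside it. Symbols and positions came from GENCODE M21, which matched 55141 of 55401 identifiers, and promoters from RefSeq. Alternatives were DESeq2 1.42.0, other scalings and filters, limma 3.58.1 on log2(FPKM + 1), glmTreat, counts divided by 4, a replicate block and each library left out in turn. The fits were tested on simulated data. Some named items are not reported here. Genes are named as members, as other PYHIN genes, as listed genes past an absolute log2 fold change of 1 (at most 6 a list) or central to the pathway, as neighbours past that minimum, or by likeness, and any others were named after their values were seen. The members and lists were chosen with earlier results of these data known.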

Additional observations from a re-analysis of the deposited data

How the results depend on the processing

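The 7 higher members remained 7 with DESeq2, upper quartile, RLE or library size scaling, no count filter, dispersions that are not robust, counts divided by 4 and the replicate block. They were 6 with limma on log2(FPKM + 1), where Ifi207 did not pass, and 6 with at least 10 counts in each library, where Ifi211 was not tested. Without 1 library the count was 6 to 7, and 0 members were lower throughout. Members past an absolute log2 fold change of 1 numbered 1 with limma on log2(FPKM + 1), a scale that shrinks low values by construction, 2 with glmTreat and 5 to 6 without 1 library. The median log2 fold change of the members was 0.70 with limma and 1.59 to 1.89 without 1 library. Summed CPM was 41.3 in MRL/lpr and 11.3 in MRL/mpj without Aim2.

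In the pathway lists, DESeq2 called 10 inflammasome genes higher. Library size scaling gave 4 cGAS-STING genes lower. Without 1 library, other PYHIN genes higher numbered 1 to 3, cGAS-STING genes lower 1 to 2, and DNA clearing enzymes lower 0 to 2. Neighbours of the locus numbered 2 to 4 higher and 1 to 2 lower without 1 library, 0 lower with flanks of 500 kb, and 2 lower with DESeq2 and with library size scaling. The cause of these shifts was not tested. Of 104 tested genes outside the 9 on the pathway lists, 6 called ones lost the call in at least 1 fit without 1 library and 7 others gained one in at least 1 fit, 3 of them only without MRL/lpr 3. No result reversed.

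The replicate numbers are shared by both strains, but same-numbered libraries did not deviate together (correlations -0.06, -0.03 and -0.08), so the numbers were not taken as pairs. With the replicate block 7 members stayed higher, with 1 other PYHIN gene higher, 1 cGAS-STING gene and 1 DNA clearing enzyme lower, and 2 neighbours higher. Depth limits Ifi206 and Ifi213, which had at most 48 and 15 counts in any library.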

Other observations

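The letters GAAANNGAAA were also followed outside the family, a comparison chosen after the members' values were seen. Of 477 tested genes with these letters in a RefSeq promoter that are not PYHIN genes, 18.9% were called higher in MRL/lpr and 10.5% lower by edgeR, against 11.5% and 10.2% of 11898 genes without them. The exact form GAAATCGAAA stood in the promoters of 9 genes outside the family, of which 7 were tested (not Adcyap1 and Gm31431) and 2 were called. Ddx58, which encodes the RNA sensor RIG-I, was higher at a log2 fold change of 1.21 (edgeR adjusted p = 7.32e-05) and Pnrc1 at 0.89 (edgeR adjusted p = 3.22e-05). The other 5 did not pass. They were Gm26797 at 1.84 (edgeR adjusted p = 0.0557), Six3os1 at 0.37 (0.824), Ripk1 at 0.09 (0.586), Serpinb6a at -0.14 (0.387) and Parp11 at -0.29 (0.408).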
